A study of Mus musculus with 2 samples.

Results

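The secreted, noncollagen matrix of newborn mouse skeletal muscle was described through 10 genes chosen by name, Sparc, Postn, Tnc, Thbs1, Thbs4, Fn1, Fbn1, Fbn2, Mfap5 and Eln, out of 43346 genes in the deposited tables. All 10 were found by gene identifier without its version. The mice were of strain B6NCrl and were newborn, at postnatal day 0. There are 2 libraries, each from 13 pg of total RNA, which the labels set equal to 1 cell-equivalent. Each started from an organ portion of 1 pup, not from an isolated cell. RNA above a size of 200 was extracted with mirVana, spike-in RNAs were used, and the linked protocol is SmartSeq, a method that copies and amplifies full-length cDNA. Both libraries belong to 1 untreated group. The labels number them biological replicates 1 and 2, give each its own tissue record but 1 shared donor entry, and state that sex was not collected. With 1 group and n = 2 no test between conditions was possible and no p-value is given. The spread between the libraries may come from animals, tissue portions or library preparation, which cannot be told apart. In bulk tissue RNA, fewer cells of a type and less RNA per cell cannot be told apart either.

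Matricellular proteins, among them SPARC, periostin, tenascin-C and the thrombospondins, are secreted into the matrix but act mainly on how cells attach to it and how collagen is assembled. Fibronectin is the adhesive fibril that cells assemble through integrins, which bind the RGD motif, an arginine, glycine and aspartate run. Fibrillins polymerise into microfibrils that store latent TGF-beta and, together with microfibril-associated proteins, form the scaffold on which elastin is laid down. In muscle this matrix is made mostly by connective tissue fibroblasts and tendon cells around the fibres.

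Sequencing depth was 32103374 expected counts for replicate 1 and 38977618 for replicate 2, spike-ins included. Expected counts, called reads here, are estimated by the quantification program and need not be whole. TPM is the level per transcript length, scaled to a fixed sum in each library. Detection required at least 5 reads and a TPM of 1 or more, which 6350 genes met in replicate 1 and 6949 did in replicate 2. Of the 8943 genes detected in at least 1 library, 4356 (48.7%) were detected in both. The labelled tissue was borne out by its markers: all 7 muscle fibre genes listed (Acta1, Ckm, Myh8, Myl1, Tnnc2, Tnnt3 and Atp2a1) were detected in both libraries, with summed TPM of 135360 in replicate 1 and 143303 in replicate 2.

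The 10 matrix genes ranged in mean level from 2568 TPM for Sparc to 17.0 TPM for Eln. All 10 were detected in replicate 1 and 9 in replicate 2, where Thbs4 had no read. The 9 of 10 detected in both stand beside 48.7% of all genes detected in at least 1 library, and beside 63.2% of such genes with a mean TPM of at least 10, a level that all 10 genes reach and that was chosen after their values were seen. Together they held 0.504% of TPM in replicate 1 and 0.374% in replicate 2 (0.439% ± 0.0915, SD, n = 2). Sparc and Postn alone made up 80.8% and 86.3% of this sum in replicates 1 and 2. Of the 9 neighbouring pairs in the order of mean TPM, only Sparc over Postn and Mfap5 over Fn1 kept their order in both libraries with a mean log2 ratio above 2 SD. The remaining 7 pairs did not differ beyond their spread, so the order from Fn1 down to Eln is not resolved between neighbours.

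**Figure D1:**
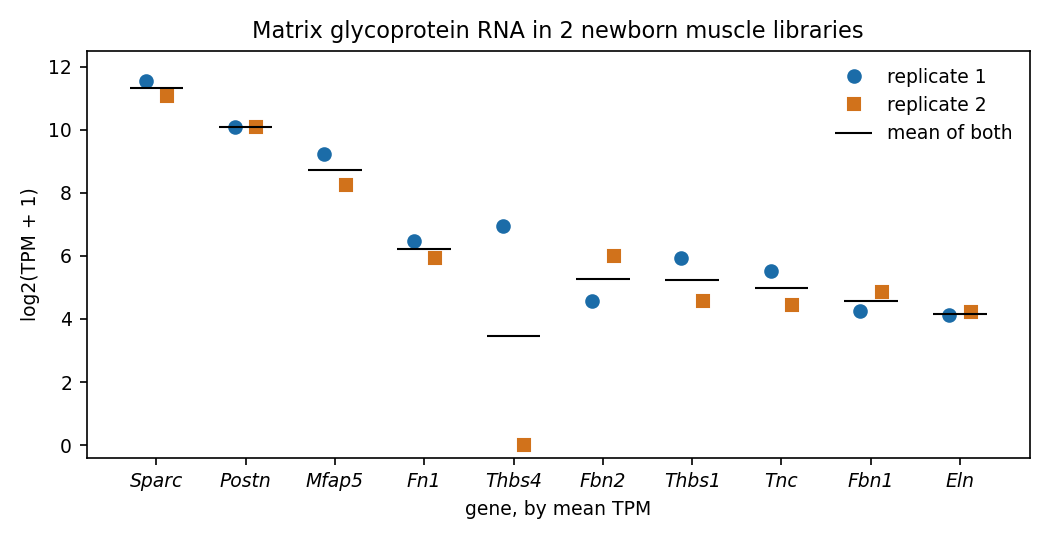
Level of each of the 10 genes as log2(TPM + 1) on the vertical axis, with the genes ordered by mean TPM on the horizontal axis. Circles are replicate 1, squares replicate 2 and lines the mean of both. Postn and Eln lie almost on their mean, while Thbs4 is at 121 TPM in replicate 1 and at 0 in replicate 2.

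Sparc (ENSMUSG00000018593.8, chr11:55394500-55423183, minus strand, GRCm38) encodes SPARC, also called osteonectin, a calcium-binding glycoprotein that binds collagen and takes part in its assembly. It had 2987 TPM in replicate 1 and 2149 TPM in replicate 2 (2568 ± 592, SD, n = 2), from 111861 and 102708 reads. It ranked 34 among all genes in replicate 1 and 50 in replicate 2, so replicate 1 was the higher library on both measures. Its log2 ratio of replicate 1 over replicate 2, centred on the median of 4872 genes with at least 10 reads in both libraries, was 0.43. The 3 protein-coding genes with the most similar pair of levels, by distance in log2(TPM + 1) over the 2 libraries, were Ubb at a distance of 0.23, Rpl41 at 0.39 and Col3a1, the chain of type III collagen, at 0.42.

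Transcript estimates split Sparc between coding and intron-retaining models in nearly the same way in both libraries. The short retained-intron model Sparc-205 took 35.3% of the gene's TPM in replicate 1 and 38.3% in replicate 2. The coding transcript Sparc-202 took 33.5% and 32.6%, and Sparc-201 took 27.9% and 28.3%. By reads the order differed, since TPM is per length and that model has only 741 bases: coding transcripts held 85.1% and 83.8% of Sparc reads, and Sparc-202 led in both libraries.

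Postn (ENSMUSG00000027750.12, chr3:54361109-54391037, plus strand) encodes periostin, a fasciclin-domain protein of collagen-rich tissue that binds collagen and tenascin-C. It had 1084 TPM in replicate 1 and 1079 TPM in replicate 2 (1082 ± 3.48, SD, n = 2), from 64104 and 86295 reads. The centred log2 ratio was -0.03 and the ranks were 101 and 111, the smallest difference of the 10 genes on this scale. On counts scaled by TMM the ratio of Postn was -0.07 and that of Fn1, at 0.04, was smaller, and centred on spike-ins Postn stood at -0.98 and Mfap5, at -0.01, was closest. Sparc stood above it by 1.46 log2 in replicate 1 and 0.99 log2 in replicate 2 (1.23 ± 0.33). The genes with the most similar levels were Cox4i1 at a log2 distance of 0.07, Atp5c1 at 0.14 and Rpl13 at 0.15.

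Periostin is known for alternative splicing of short exons in its C-terminal part, and the estimates spread its RNA over 4 coding transcripts. Postn-204 was the largest, at 28.8% of the gene's TPM in replicate 1 and 37.4% in replicate 2. Postn-203 took 26.6% and 25.2%, Postn-206, a partial model of 655 bases, 25.5% and 19.3%, and Postn-201 18.9% and 17.2%. The share of coding TPM in transcripts with a given exon was close between the libraries. It was 26.7% and 25.4% for an exon of 81 bases (chr3:54380412-54380492) and 18.9% and 17.3% for one of 84 bases (chr3:54385671-54385754). An exon of 78 bases between them (chr3:54385208-54385285) stood at 74.4% and 80.5%, and only the partial Postn-206 lacks it. Both low-inclusion exons are whole numbers of codons, 27 and 28. Postn-201, Postn-203 and Postn-204 differ in which of them they hold. Both are given here as the plus strand of GRCm38 in the GENCODE M21 transcripts, whole and without capitals.
Postn exon of 81 bases: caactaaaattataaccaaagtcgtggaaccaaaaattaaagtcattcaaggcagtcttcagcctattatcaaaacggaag
Postn exon of 84 bases: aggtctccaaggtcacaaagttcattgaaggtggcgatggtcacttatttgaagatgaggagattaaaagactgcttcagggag

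Tnc (ENSMUSG00000028364.11, chr4:63959785-64047015, minus strand) encodes tenascin-C, a hexameric anti-adhesive protein found at developing muscle-tendon junctions. It had 44.7 TPM in replicate 1 and 20.6 TPM in replicate 2 (32.6 ± 17.0, SD, n = 2), from 7501 and 4384 reads. Replicate 1 was higher by a centred log2 of 1.04, just past 2-fold. Relative to Fn1 it was lower in both libraries, by log2 ratios of -0.96 and -1.51 (-1.24 ± 0.38). Tnc-201 led with 44.5% of TPM in replicate 1 and 71.6% in replicate 2, and Tnc-204 followed with 35.9% and 28.4%. A further exon of 273 bases, 91 codons (chr4:63984460-63984732), is part of Tnc-203, which held 19.6% of TPM in replicate 1, from 1499 reads, and no read in replicate 2.

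Thbs1 (ENSMUSG00000040152.8, chr2:118111876-118127133, plus strand) encodes thrombospondin-1, a trimer that binds CD36 and CD47 and can activate latent TGF-beta. It had 59.7 TPM in replicate 1 and 22.5 TPM in replicate 2 (41.1 ± 26.3, SD, n = 2), from 8373 and 4022 reads. Replicate 1 was the higher library, with a centred log2 ratio of 1.33. Nearly all of it was assigned to Thbs1-201, with 100% and 99.4% of TPM.

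Thbs4 (ENSMUSG00000021702.7, chr13:92751590-92794818, minus strand) encodes thrombospondin-4, a pentamer of tendon and muscle matrix. It had 121 TPM in replicate 1, from 9168 reads, and 0 reads in replicate 2. With the count of 0 set to a floor of 3 reads, or 0.0310 TPM in replicate 2, the TPM of replicate 1 was 3913-fold higher. This covers counting error of reads only and is not a lower bound for the RNA in the tissue. The log2 ratio of Thbs1 over Thbs4 was -1.01 in replicate 1 and 4.56 in replicate 2, so the order of these thrombospondins changed with the library.

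Reads in 1 library and none in the other were seen in both directions: 784 genes had at least 1000 reads in replicate 1 and none in replicate 2, and 974 genes the reverse. Of the other genes examined, 7 were of the first kind (Fmod, Itga5, Lox, Smad3, Smoc1, Kera and Ccn1, with 5825 to 2209 reads) and 5 of the second (Ltbp1, Itgb5, Bmp1, Myh11 and Furin, with 2564 to 1366 reads). These were named after their values were seen. Among 7 tendon markers, 2 were detected in replicate 1 only, Fmod with 5825 reads and Kera with 2364. Mkx with 22 reads and Scx with 5 in replicate 1 had none in replicate 2, and met detection in neither library. In the other direction, Tnmd, a tendon-specific membrane protein, had 2.78 TPM in replicate 1 and 19.6 TPM in replicate 2, and Col12a1 had 18.7 and 88.3 TPM. The 7 markers summed to 154 TPM in replicate 1 and 108 TPM in replicate 2, and none was at 0 in both. Detection in both held for 2, which is 50% of those detected in at least 1 library, beside 48.7% of all such genes. Their part in the Thbs4 difference was not tested.

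Fn1 (ENSMUSG00000026193.11, chr1:71585520-71653200, minus strand) encodes fibronectin. It had 88.1 TPM in replicate 1 and 60.4 TPM in replicate 2 (74.2 ± 19.6, SD, n = 2), from 8975 and 11143 reads. The centred log2 ratio was 0.50 by TPM but 0.04 on counts scaled by TMM. The mean transcript length behind the estimate was 4274 bases in replicate 1 and 6005 bases in replicate 2, and coding transcripts alone were lower in replicate 1, with 17.7 TPM against 29.8 TPM in replicate 2. Postn stood above it by 3.61 and 4.14 log2 in replicates 1 and 2 (3.87 ± 0.38) and Mfap5 by 2.74 and 2.30 (2.52 ± 0.31).

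Fibronectin is the classic case of regulated splicing in the matrix: cellular fibronectin can carry the extra domains EDA and EDB, each a single exon, which plasma fibronectin made by the liver lacks. Coding transcripts held 20.1% of Fn1 TPM in replicate 1 and 49.3% in replicate 2, and the retained-intron model Fn1-202 led in both with 60.1% and 50.7%. Within the coding share, transcripts with the EDA exon held 100% in replicate 1 (17.7 TPM with, 0 without) and 75.9% in replicate 2 (22.6 TPM with, 7.17 without). Transcripts with the EDB exon, represented only by Fn1-201, held 15.3% in replicate 1 (2.71 TPM with, 15.0 without) and 48.6% in replicate 2 (14.5 TPM with, 15.3 without). EDA was thus the more included domain in both libraries, and EDB inclusion was the higher in replicate 2. Liver markers, 5 genes of plasma proteins, summed to 0.18 TPM in replicate 1 and 55.8 TPM in replicate 2, with Alb at 1 and 2310 reads and Serpina1a and Fgb at 0 in both. Their part in the lower EDA share of replicate 2 was not tested.

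The EDA exon has 270 bases or 90 codons (chr1:71603660-71603929) and the EDB exon 273 bases or 91 codons (chr1:71613763-71614035), the same length as the extra exon of Tnc. All 3 are printed below in the sense of the gene, which is the minus strand of GRCm38, from the GENCODE M21 transcripts, because their presence is what separates the isoforms compared above. No base is capitalised.
Fn1 EDA exon: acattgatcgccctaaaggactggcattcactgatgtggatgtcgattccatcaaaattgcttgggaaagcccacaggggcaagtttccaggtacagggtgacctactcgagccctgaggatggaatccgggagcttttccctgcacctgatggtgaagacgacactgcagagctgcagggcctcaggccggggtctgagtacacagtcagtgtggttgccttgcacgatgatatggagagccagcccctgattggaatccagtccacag
Fn1 EDB exon: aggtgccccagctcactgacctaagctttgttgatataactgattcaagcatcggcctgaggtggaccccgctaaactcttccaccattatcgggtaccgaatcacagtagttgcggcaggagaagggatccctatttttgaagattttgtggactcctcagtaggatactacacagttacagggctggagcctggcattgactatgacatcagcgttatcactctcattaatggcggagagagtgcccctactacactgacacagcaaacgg
Tnc extra exon: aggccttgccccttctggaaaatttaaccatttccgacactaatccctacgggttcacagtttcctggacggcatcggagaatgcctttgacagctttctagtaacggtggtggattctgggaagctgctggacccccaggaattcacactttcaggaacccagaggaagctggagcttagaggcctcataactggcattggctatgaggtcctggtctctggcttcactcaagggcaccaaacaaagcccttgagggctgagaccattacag

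**Figure D2:**
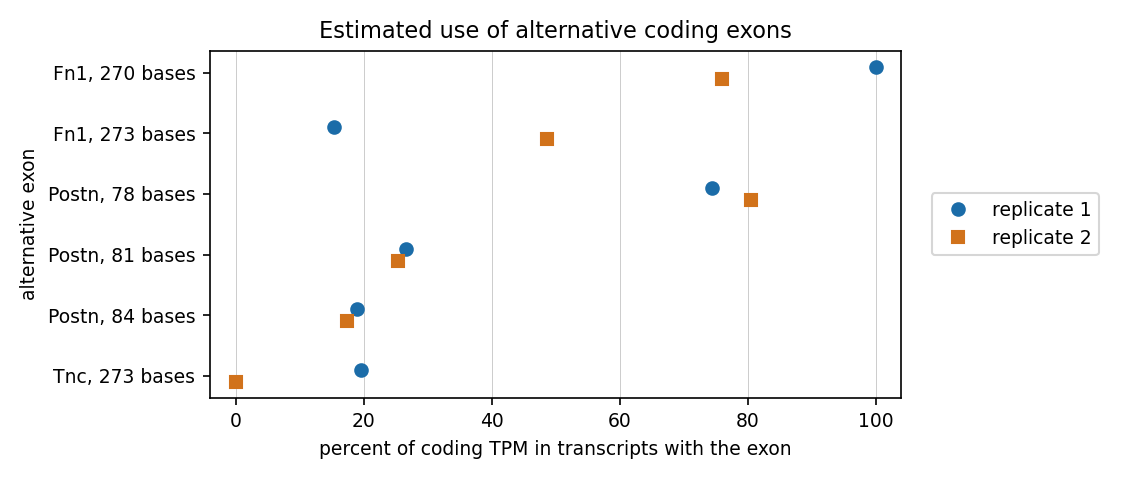
Percent of coding TPM assigned to transcripts that hold each alternative exon (horizontal axis) for 6 exons of Fn1, Postn and Tnc (vertical axis, named by length). Circles are replicate 1 and squares replicate 2, and the 3 Postn exons lie close together between libraries while the Fn1 and Tnc exons lie apart.

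**Figure D3:**
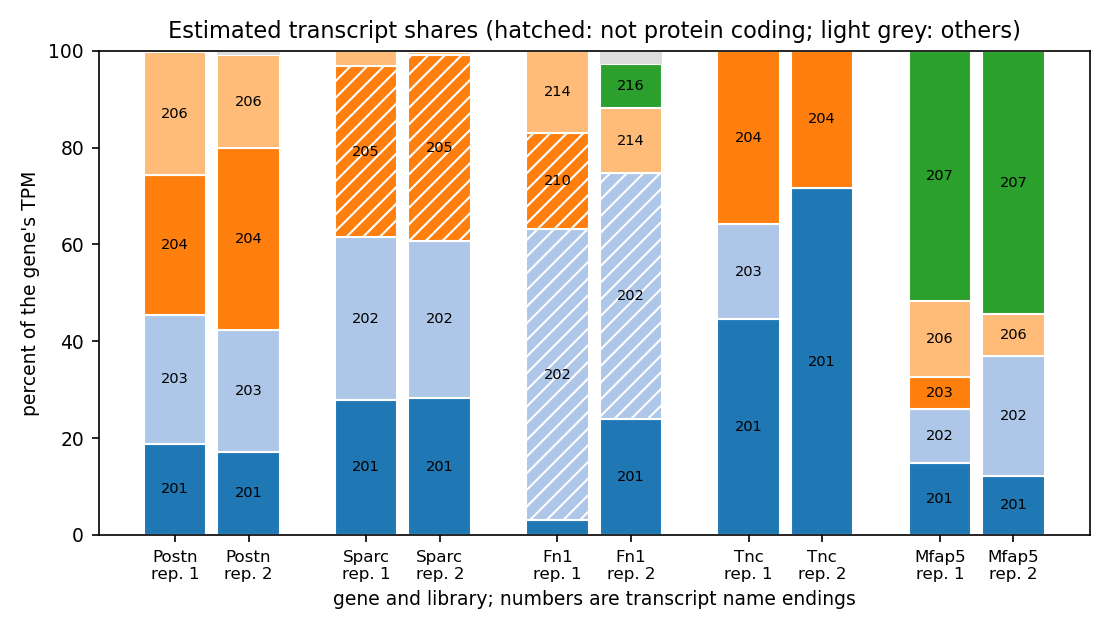
Percent of each gene's TPM by estimated transcript (vertical axis) for the 5 genes with several expressed transcripts, replicate 1 left of replicate 2. Numbers are the endings of transcript names, hatching marks transcripts that are not protein coding, and Fn1-202 and Sparc-205 are the hatched blocks that lead their genes by TPM.

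Fbn1 (ENSMUSG00000027204.9, chr2:125300594-125507993, minus strand) and Fbn2 (ENSMUSG00000024598.8, chr18:58008623-58210487, minus strand) encode the microfibril proteins fibrillin-1 and fibrillin-2, of which fibrillin-2 is best known from development. Fbn1 had 18.2 TPM in replicate 1 and 28.1 TPM in replicate 2 (23.1 ± 6.98, SD, n = 2), from 4332 and 8554 reads. Fbn2 had 22.7 TPM in replicate 1 and 62.4 TPM in replicate 2 (42.5 ± 28.1), from 5737 and 20244 reads. Both fibrillins were higher in replicate 2, with centred log2 ratios of -0.64 for Fbn1 and -1.46 for Fbn2. Fbn2 stood above Fbn1 by 0.30 log2 in replicate 1 and 1.12 log2 in replicate 2 (0.71 ± 0.58), the same direction in both but within 2 SD. All reads of either gene went to 1 transcript, Fbn1-201 and Fbn2-201.

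Mfap5 (ENSMUSG00000030116.10, chr6:122505845-122529290, plus strand) encodes microfibril-associated glycoprotein 2, a small protein that binds fibrillins. It had 594 TPM in replicate 1 and 302 TPM in replicate 2 (448 ± 206, SD, n = 2), from 14639 and 9993 reads, with a centred log2 ratio of 0.93. Although replicate 1 was the higher library for Mfap5 and the lower one for both fibrillins, Mfap5 exceeded Fbn1 in both, by 4.95 and 3.38 log2 (4.17 ± 1.11), and Fbn2 by 4.65 and 2.26 log2 (3.46 ± 1.69). Mfap5-207 led with 51.6% of TPM in replicate 1 and 54.3% in replicate 2, and Mfap5-202 held 11.1% and 24.7%.

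Eln (ENSMUSG00000029675.9, chr5:134702593-134747323, minus strand) encodes tropoelastin, the precursor of the elastic core. It was the lowest of the 10 by mean, with 16.5 TPM in replicate 1 and 17.6 TPM in replicate 2 (17.0 ± 0.728, SD, n = 2), from 1002 and 1363 reads. Its single transcript was quantified at 2583 bases but has 3853 in GENCODE M21, and TPM is per length. The exact Poisson intervals at 95% were 941 to 1066 reads in replicate 1 and 1292 to 1437 reads in replicate 2, and the centred log2 ratio was -0.12. Fbn1 stood above Eln by 0.13 and 0.65 log2 (0.39 ± 0.36), which is within 2 SD.

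Over the 10 genes, 6 had a centred log2 ratio above 0 and 4 below, with a median of 0.47, or 0.43 without Thbs4. The median was -0.17 over all genes detected in at least 1 library and 0.03 over those detected in both. Thbs4, Thbs1, Tnc and Fbn2 were more than 2-fold apart, 4 of 10 genes beside 71.5% of genes detected in at least 1 library. Thbs4, Thbs1 and Tnc were higher in replicate 1, 3 of 10 beside 32.6%. Fbn2 was higher in replicate 2, 1 of 10 beside 38.9%. Among the 9 genes detected in both libraries, 3 were more than 2-fold apart, beside 45.7% of genes detected in both with a mean TPM of at least 10. Their median absolute ratio was 0.64 log2, against 0.89 log2 for genes detected in both at that level. Spike-in RNAs give a scale for these differences: 25 with at least 10 reads in both libraries had an SD of 0.91 log2 around their median and a largest deviation of 2.94 log2. Of the 10 genes only Thbs4, the gene without reads in 1 library, lay farther out than that. The 13 spike-ins with a mean above 10000 reads varied less, with an SD of 0.49 log2 and a largest deviation of 1.06 log2. Of the 5 genes at that depth, Fbn2 lay beyond this deviation, and Sparc, Postn, Fn1 and Mfap5 did not.

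The direction of these ratios depends on the scale. The spike-in share of TPM was 9.44% in replicate 1 against 4.54% in replicate 2. With spike-ins as the centre, the median gene lay at -0.94 log2, and only Thbs4, Thbs1 and Tnc stayed above 0. On that scale 1 of the 10 genes (Thbs4) was more than 2-fold higher in replicate 1, beside 22.8% of genes detected in at least 1 library, and 3 (Fbn2, Fbn1 and Eln) were more than 2-fold higher in replicate 2, beside 52%. Centred on genes, these counts were 3 and 1. Differences are therefore given relative to the median gene throughout.

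**Figure D4:**
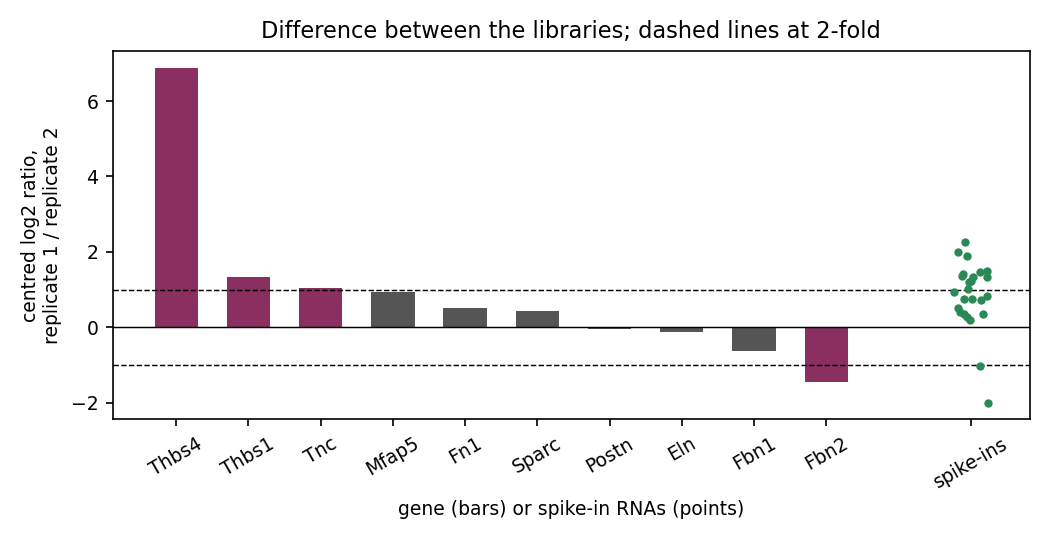
Centred log2 ratio of replicate 1 over replicate 2 (vertical axis) for the 10 genes as bars, and for 25 spike-in RNAs as points on the same gene-centred scale. Dashed lines mark 2-fold. Bars past them are purple: Thbs4, Thbs1 and Tnc above and Fbn2 below, and the spike-ins scatter around their own median of 0.94.

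The RGD motif, which the choice of genes did not use, was looked for in the coding sequences. Its run of codons was found in frame in the longest coding transcript with reads of 6 of the 10 genes, Fn1, Thbs1, Thbs4, Fbn1, Fbn2 and Mfap5, and in none of Postn, Sparc, Tnc and Eln. Over all 21778 protein-coding genes of GENCODE M21 the share was 7.20%, and over the 3817 of at least 800 codons, a length 8 of the 10 genes reach, it was 18.1%. Among those 8 genes, 5 hold the motif. The cut does not match the genes for length, as Tnc, Fn1, Fbn1 and Fbn2 have 2110 to 2907 codons. Shares over all genes used the longest annotated coding sequence, with or without reads. Thbs1 and Thbs4, and Fbn1 and Fbn2, are pairs of related genes. A match is a description of the sequence and not evidence that an integrin binds there; in fibronectin the first site and in fibrillin-1 and microfibril-associated glycoprotein 2 the single sites are known cell attachment motifs. The windows below give 45 bases in the sense of each gene from the GENCODE M21 transcripts on GRCm38, with the 9 RGD bases in capitals. The 2 sites of Fbn2, at codons 1054 and 1579, are named without a window.
Fn1 site at codon 1614: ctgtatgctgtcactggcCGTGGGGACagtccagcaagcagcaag
Fn1 site at codon 2181: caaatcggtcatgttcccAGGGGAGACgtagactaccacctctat
Thbs1 site at codon 927: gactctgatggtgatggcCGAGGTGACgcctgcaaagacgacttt
Thbs4 site at codon 138: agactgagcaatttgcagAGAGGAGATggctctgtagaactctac
Thbs4 site at codon 564: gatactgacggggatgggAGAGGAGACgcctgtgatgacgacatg
Fbn1 site at codon 1543: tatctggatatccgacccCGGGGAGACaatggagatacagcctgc
Mfap5 site at codon 30: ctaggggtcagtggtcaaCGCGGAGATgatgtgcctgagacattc

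In Fn1 the site at codon 1614 (chr1:71606746-71606754) lies between the EDB and EDA exons and was in every coding transcript with reads. The site at codon 2181 (chr1:71597443-71597451) was in 100% of coding TPM in replicate 1 and 81.7% in replicate 2, as Fn1-216 lacks it. In Mfap5 the motif is put together by splicing: its bases end an exon of 36 bases (chr6:122515348-122515383) and begin one of 33 bases (chr6:122520579-122520611). Transcripts with both exons joined in this way held 77.7% of Mfap5 coding TPM in replicate 1 and 91.3% in replicate 2, and Mfap5-203, Mfap5-204 and Mfap5-206 lack the site. The share without the motif was thus the larger in replicate 1, the library with more Mfap5.

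Of 16 close relatives of the matricellular genes, 7 were detected in both libraries, 4 in 1 and 5 in neither. The 7 are 63.6% of the relatives detected in at least 1 library, and their median centred log2 ratio was 0.12. The share was 48.7% over all such genes and 63.2% over those with a mean TPM of at least 10. Both shares are the background for the lists below too, as many but not all listed genes reach that level. Sparcl1, a SPARC relative also called hevin, had 135 TPM in replicate 1 and 120 TPM in replicate 2. Smoc2, another SPARC-family protein, had 68.3 and 164 TPM. The thrombospondins Thbs3 and Thbs2 had 126 and 95.5 TPM and 73.9 and 44.2 TPM in replicates 1 and 2. Comp, the cartilage thrombospondin, the tenascins Tnn and Tnr, and Ccn5 had no reads in either library.

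Among 20 genes of microfibrils and elastic fibres, which include Fbn1, Fbn2, Eln and Mfap5, 12 were detected in both libraries, with a median of 0.27. The 12 are 66.7% of those detected in at least 1 library. All such genes stood at 48.7%, and those with a mean TPM of at least 10 at 63.2%. Mfap2, the other microfibril-associated glycoprotein, had 653 TPM in replicate 1 and 544 TPM in replicate 2, higher than Mfap5 in both libraries. Mfap4, an elastic-fibre protein, had 265 and 85.6 TPM, and Efemp2 or fibulin-4, needed for elastic fibre assembly, had 33.3 and 153 TPM. Lox, the lysyl oxidase that crosslinks elastin and collagen, had 4973 reads in replicate 1 and none in replicate 2. Ltbp2, a latent TGF-beta binding protein relative, and Emilin1 had none in both.

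Of 12 receptors for these proteins, 5 were detected in both libraries, with a median of 0.32. The 5 are 62.5% of the receptors detected in at least 1 library. All such genes stood at 48.7%, and those with a mean TPM of at least 10 at 63.2%. Cd36 and Cd47, receptors of thrombospondin-1, had 292 and 56.0 TPM in replicate 1 and 228 and 55.2 TPM in replicate 2. Itgb1, the beta subunit shared by most matrix-binding integrins, had 162 and 183 TPM, and Sdc4, a heparan sulfate co-receptor for fibronectin, 70.2 and 22.3 TPM in replicates 1 and 2. Itga5, whose protein pairs with that of Itgb1 as the main fibronectin receptor, had 5710 reads in replicate 1 and none in replicate 2. Itgb3 and Itga4 had none in both.

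TGF-beta induces several of these matrix genes. Of 13 genes of its pathway, 3 were detected in both libraries, 5 in 1 and 5 in neither, so that 37.5% of those detected in at least 1 were detected in both, beside 48.7% of all such genes. The median centred log2 ratio of the 3 was -0.79. The ligand Tgfb3 had 62.1 TPM in replicate 1 and 44.3 TPM in replicate 2, and Tgfb2 had 15.9 and 27.4 TPM. Smad4, the shared signal carrier, had 1.01 and 35.0 TPM. Tgfb1 and Tgfbr1 had no reads in either library. Of 12 matrix proteases and inhibitors, 5 were detected in both (median 1.61), 71.4% of those detected in at least 1 library. Mmp2, a gelatinase, was highest by mean at 53.8 and 131 TPM in replicates 1 and 2. The inhibitor gene Timp3 had 92.2 and 14.2 TPM and was above Mmp2 in replicate 1. Adamts10, whose protease binds fibrillin-1, had 52.1 and 15.96 TPM, and Timp2 4.12 and 28.4 TPM. Mmp9, Adamtsl2 and Timp1 had no reads.

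**Figure D5:**
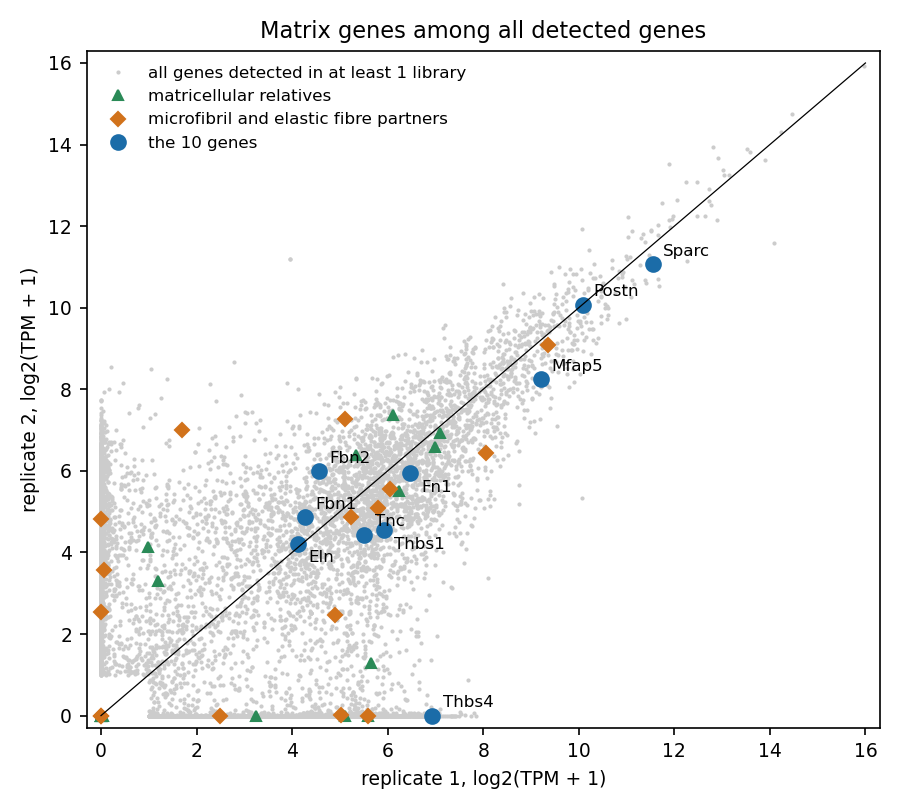
Level in replicate 1 (horizontal axis) against replicate 2 (vertical axis), both as log2(TPM + 1), for all genes detected in at least 1 library (grey), matricellular relatives (triangles), microfibril and elastic fibre genes (diamonds) and the 10 genes (circles, named). The line marks equal levels; Sparc, Postn and Mfap5 lie in the narrow upper part of the cloud and Thbs4 on the lower axis.

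Markers of the cells that can make this matrix were read in both libraries. Of 11 fibroblast markers 10 were detected in both, which is 100% of those detected in at least 1 library, beside 48.7% of all such genes. At a mean TPM of at least 10 the share of all such genes was 63.2%. The markers had summed TPM of 6667 in replicate 1 and 4215 in replicate 2. Their median centred log2 ratio was 0.48, beside 0.47 for the 10 matrix genes. The highest were Col3a1 (2679 and 1637 TPM), Col1a1 (1829 and 784 TPM), Col1a2 (999 and 592 TPM) and Dcn, which encodes decorin (660 and 680 TPM). Of the 10, 6 had a ratio above 0 and 4 below, and those higher in replicate 2 included Lum (104.45 and 216.21 TPM), Ly6a (69.5 and 112 TPM) and Thy1 (1.23 and 9.80 TPM), named after their values were seen. The summed matrix genes stood at 5036 TPM in replicate 1 and 3742 TPM in replicate 2. The part of fibroblast content in this difference was not tested.

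Other possible sources differed in both directions. Of 8 mural and smooth muscle markers 4 were detected in both. These are 50% of the markers detected in at least 1 library, beside 48.7% of all such genes. The summed TPM was 1154 in replicate 1 and 1600 in replicate 2, mostly from Des (752 and 955) and Acta2 (319 and 487). Of the 4, 1 had a centred log2 ratio above 0 and 3 below. Of 8 endothelial markers 5 were detected in both, 62.5% of those detected in at least 1 library. The summed TPM was 532 and 259 in replicates 1 and 2. Much of this gap was Pecam1, with 182 TPM in replicate 1 and 0.06 TPM in replicate 2 (12711 and 4 reads). Of the 5, 3 had a ratio above 0 and 2 below, Tie1 (5.03 and 21.6 TPM) and Esam (74.45 and 88.8 TPM). Macrophage markers (4 of 6 detected in both, 100% of those detected in at least 1) summed to 633 and 270.5 TPM. Of these 4, 3 had a ratio above 0, and Mrc1 was below (7.23 and 43.3 TPM). The other 2 were detected in neither library. Satellite cell markers (2 of 5, 66.7%) summed to 158 and 32.4 TPM, mostly from Vcam1 (73.8 and 9.36 TPM) and Sdc4 (70.2 and 22.3 TPM). Pax7, with 0 reads in replicate 1 and 139 in replicate 2, was detected in neither. Platelets also carry thrombospondin-1. Of 5 platelet markers Pf4 was detected, at 325 TPM in replicate 1 and 394 TPM in replicate 2, and Ppbp, Itga2b, Gp1bb and Gp9 were at 0 in both. The part of platelets in the level of Thbs1 was not tested. All 8 cartilage and bone markers (Col2a1, Acan, Sox9, Matn1, Sp7, Bglap, Ibsp and Runx2) had 0 reads in both libraries.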

How the data were processed

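RNA was measured in 2 libraries of 1 group, numbered by the labels, so the spread may be partly technical. The authors deposited expected counts (estimated, unnormalized), TPM scaled to a fixed sum over all rows, FPKM, and the percent share of each transcript in its gene. Per the file headers, the values are RSEM output with posterior means. Descriptions deposited with the files name mm10 and GENCODE M4. The aligner is not given in the sources used here, and neither is the use of strand. Annotated genes on the opposite strand overlap Fn1, Tnc, Thbs1, Fbn1 and Fbn2, and had 0 reads except for 2 reads of Gm29233 in replicate 1.

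Symbols, coordinates, exons and sequences came from GENCODE M21 on GRCm38, matched by identifier without version. This gave 42462 of 43346 genes a symbol. Of 52 transcripts of the 10 genes, 48 had the same length in both annotations, and transcript shares are estimates. Among those that differ, Eln-201 was quantified at 2583 bases, against 3853 in M21, and Fbn2-201 at 10480, against 11041. The TPM of Eln and Fbn2 rests on these shorter models. Spike-ins (96) were kept apart, and 26248 numbered rows and 1 other were left out. Reads on the numbered rows came to 0 in replicate 1 and to 182 in replicate 2.

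Ratios are log2(TPM + 1) of replicate 1 minus replicate 2, less the median over genes that reach 10 reads in each library, a shift of 0.04. An exon's share is the TPM of coding transcripts with it over that of coding transcripts with or without it. Intervals at 95% and the floor of 3 reads cover counting error only, as there are no molecular identifiers. The centred ratio and the 2-fold call were tested on simulated counts with counting error only. Such counts leave out the further spread between these libraries, and the other steps were not simulated. Of each list, the up to 4 genes of highest mean TPM detected in both libraries are named, and markers at 0 in both; 1 listed gene is not reported here. The 10 genes and all lists were chosen with earlier results of these data known. Tables were computed with pandas 2.3.3 and numpy 2.4.6 in Python 3.11.15, intervals with scipy 1.17.1, figures with matplotlib 3.10.9, and TMM factors with edgeR 4.0.16 (R 4.3.3).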

Additional observations from a re-analysis of the deposited data

How the results depend on the processing

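No paired analysis was possible because both libraries belong to 1 group. Without either library, the number of genes detected ran from 9 to 10 and the share of TPM from 0.374% to 0.504%. Other detection thresholds, and replicate 2 drawn down to the depth of replicate 1, left 9 genes detected in both. From reads without the adjustment for length, the share was 0.714%. The median log2 ratio of replicate 1 over replicate 2 was -0.48 when centred on spike-ins, and 0.25 to 0.51 under other pseudocounts, scalings and a filter on low counts. The number of genes over 2-fold apart was 3 or 4 under these settings and 1 past 3-fold. The lead transcript was the same in both libraries for 9 genes by TPM, by reads and by posterior means. Of 60 recomputed gene ratios 14 moved by more than the spike-in SD, and none past 2-fold changed sign. Among the 9 genes detected in both, the lowest count was 1002 reads. These are not counts of RNA molecules, as there are no molecular identifiers. Thbs4 was not detectable in replicate 2 at this input, which does not show that it was absent from the tissue.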
